A study of Arabidopsis thaliana with 9 samples.

Results

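The SRT1 overexpression line was compared with wild type in Arabidopsis thaliana seedlings, and the genes described here are those that the authors listed as differing between them. An entry was used when its deposited locus held no space, which kept 1952 of the 1966 entries in the higher and lower lists. The direction was taken from the OX value over the wild-type value. Of the 1952 genes, 1865 lie on nuclear chromosomes, 56 on the chloroplast genome and 31 on the mitochondrial genome. The series lists 2507 genes in all, including those of an RNA interference (RNAi) line. Of the 1865 nuclear genes, 1369 appear in neither of the lists made for the RNAi line.

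OX seedlings carried an SRT1 overexpression construct in line OX-SRT1-1, as the protocol names it. The libraries are titled OX-AtSRT1 and the columns are labelled ox5, and no source used here says how these names relate. Wild-type seedlings were Col, labelled col. Both were 14 days old and were raised on MS medium in a climate chamber under normal growth conditions, and RNA from leaf, stem and root together was extracted with Trizol and made into TruSeq libraries. Each group had 3 libraries, and the RNAi line of SRT1 enters only through the names of its listed genes. The overexpression group is a single line, and the promoter that drives the construct is not given in the sources used here. The labels do not state whether the 3 libraries were grown separately, so the deposited q-values measure only the spread between these libraries, which may be technical. The tables give 1 FPKM value per group and gene, FPKM being fragments counted per kilobase of transcript and scaled to library size. No SD can therefore be given, depth is unknown, and whether a gene differed is taken from the authors' deposited table.

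SRT1 encodes a sirtuin, an enzyme that removes acetyl groups from proteins and uses NAD as a co-substrate. It resides in the nucleus, where acetylated histones and transcription regulators are among the known targets of such enzymes. Loss of acetyl groups from histones is generally associated with lower transcription of the genes they cover. Because whole seedlings were measured, fewer cells of a type and less RNA per cell cannot be told apart.

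SRT1 itself (AT5G55760, chromosome 5, 22567222 to 22570963, TAIR10, a protein-coding gene with up to 14 exons) was 6.05 FPKM in OX and 1.75 FPKM in wild type. The ratio was 3.46-fold, with a q-value of 0.00015 in the authors' deposited table, so the gene was higher in the line labelled as overexpressing it. The direction of SRT1 thus matched the OX label. In the RNAi tables, titles and column labels conflict with each other, and so only the presence of a gene in them was used. Among the 10 nearest protein-coding genes on each side of SRT1, 4 were listed, all of them higher in OX. Of all protein-coding genes on chromosome 5, 6.56% were listed, and 60.8% of all listed nuclear genes were higher. Whether nearness to SRT1 plays a part was not tested. The closest of the 4 was NMNAT, the fifth gene downstream by coordinate, which encodes the adenylyltransferase that completes NAD. It was 3.69 FPKM in OX and 1.65 FPKM in wild type, 2.24-fold higher, and was chosen for mention after its value was seen. Its deposited locus is 10051 bases long, and such a locus can span more than 1 gene.

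Of the nuclear genes, 1134 were listed as higher in OX and 731 as lower. With 2-fold taken on log2(FPKM + 1), which shrinks the ratios of low genes, 383 were higher and 400 lower, so the side with more genes depended on the scale. The p- and q-values in the authors' deposited tables are related through the number of tests, which works out at 19468. Against that number, genes listed as higher made up 5.82% of all tests, and genes listed as lower, organelle genes included, 4.2%. The largest listed p-value, 0.0285, carried a q-value of 0.0492, and 57.9% of the tests had a p-value at or below it. The 2-fold limit and not the q-value therefore set most of the length of these lists. Absence from a list is no measure of a gene's level.

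Most of the listed differences were small. The median ratio was 2.42-fold for the genes higher in OX and 2.49-fold for those lower, and 291 higher and 208 lower genes lay under 2.2-fold. At least 4-fold was reached by 79 genes higher in OX and by 126 genes lower. Just inside the limit, AT5G56380, an F-box protein gene, measured 5.97 FPKM in OX and 2.99 FPKM in wild type, and MAKR3, a membrane-associated kinase regulator gene, measured 1.23 FPKM in OX and 2.46 FPKM in wild type. CBL6, a calcineurin B-like calcium sensor gene, stood just inside the q-value limit among the higher genes, at 0.534 FPKM in OX and 0.137 FPKM in wild type with a q-value of 0.0478 in the authors' deposited table. Values just outside either limit were not analysed here.

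Most listed nuclear genes, 1369 in all, were absent from both RNAi lists. Those lists hold 1126 genes, beside 19468 tests in the OX comparison. Absence from them is thus usual for any gene and is not read as particular to OX. It held for 73.4% of the listed nuclear genes, a smaller share than these totals would leave for any tested gene. Of these 1369 genes 67.1% were higher and 32.9% lower in OX. Absence held for 918 of the 1134 genes higher in OX, or 81.0%, and for 451 of the 731 lower genes, or 61.7%. They had median ratios of 2.35-fold in the higher direction and 2.33-fold in the lower one. The 216 higher and 280 lower genes that also stand in an RNAi list had medians of 2.96-fold and 2.93-fold. A gene in neither RNAi list has no RNAi value here, so whether the lines differed for it was not tested. Both lines were set against wild-type seedlings, so the comparisons share their control.

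**Figure D1:**
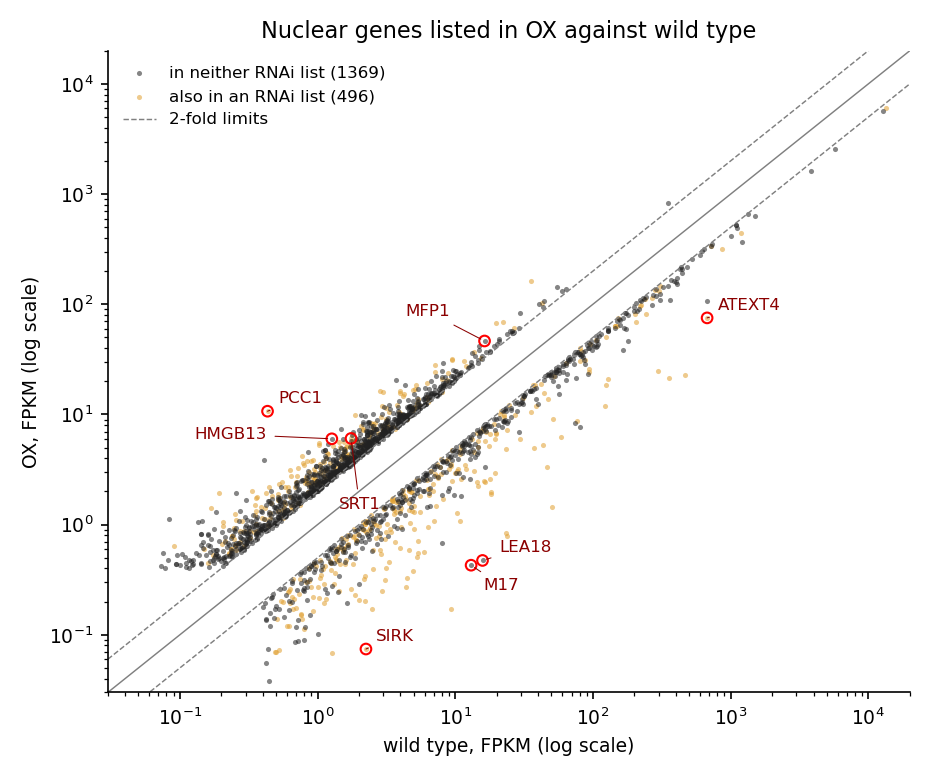
FPKM in OX (vertical, log scale) against FPKM in wild type (horizontal, log scale) for the 1865 listed nuclear genes, 1 point per gene, black for the 1369 genes in neither RNAi list and orange for the 496 also in one. The empty band is the 2-fold limit. Genes higher in OX gather at low values, with a median of 3.48 FPKM in OX and 1.37 FPKM in wild type, and genes lower in OX reach far higher levels.

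The largest ratios among genes higher in OX and in neither RNAi list are given for genes that have a symbol and reach 5 FPKM or more in OX. HMGB13, a high mobility group box protein that binds DNA, was 6.01 FPKM in OX and 1.27 FPKM in wild type, 4.73-fold higher. CPX2, a coproporphyrinogen III oxidase homologue of the tetrapyrrole pathway, was 9.65 FPKM in OX and 2.21 FPKM in wild type. PMI15, which is needed for chloroplast movement, was 3.97-fold higher. NFYC10, a histone-fold subunit of the CCAAT-binding factor NF-Y, lies close to PMI15. It was also higher, at 5.94 FPKM in OX and 1.54 FPKM in wild type.

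CRWN3, a coiled-coil protein of the plant nuclear lamina, was 8.58 FPKM in OX and 2.31 FPKM in wild type, 3.72-fold higher. CBP60F, a calmodulin-binding protein, was 8.39 FPKM in OX and 2.32 FPKM in wild type, and CPK23, a calcium-dependent protein kinase, was 7.17 FPKM in OX and 2.00 FPKM in wild type. ATFP3, a farnesylated protein, KICP-02, a kinesin, and PRP40A, a pre-mRNA-processing protein, were 3.34-fold, 3.28-fold and 3.16-fold higher. TTN8, a cohesin subunit of the SMC family, and MFP1, a filament-like protein that binds matrix attachment regions of DNA, were 2.85-fold and 2.84-fold higher. MFP1 had by far the highest level of these 12 genes, at 46.4 FPKM in OX and 16.3 FPKM in wild type. Each of the 12 had a q-value of 0.00015, the smallest in the authors' deposited table.

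Among genes lower in OX and in neither RNAi list, the 3 largest ratios were those of LEA18, M17 and ICL. LEA18, a late embryogenesis abundant protein gene, measured 0.473 FPKM in OX and 15.8 FPKM in wild type, 33.4-fold lower, with a deposited q-value of 0.00067. M17, another late embryogenesis gene, measured 0.428 FPKM in OX and 13.0 FPKM in wild type, 30.5-fold lower. ICL encodes isocitrate lyase of the glyoxylate cycle, which turns stored lipid into sugar precursors in germinating seeds, and it was 0.682 FPKM in OX and 8.03 FPKM in wild type. Not all late embryogenesis genes were low in OX. AT1G54410, a dehydrin gene with the largest difference in FPKM of all genes higher in OX, was 835 FPKM in OX and 350.0 FPKM in wild type, and of the 13 listed late embryogenesis and seed proteins 3 were higher and 10 lower. The 6 storage and oil-body markers of seeds that were looked for had 0 listed members.

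PER62, a secreted class III peroxidase, was 8.30 FPKM in OX and 73.6 FPKM in wild type, 8.86-fold lower. BGLU30, a beta-glucosidase, was 6.01-fold lower. DTX1, a MATE efflux carrier, and ZIP5, a zinc transporter, were 4.41-fold and 4.29-fold lower, and PRXIIC, a thioredoxin-dependent peroxidase, was 23.1 FPKM in OX and 92.4 FPKM in wild type. DTX1 has a close neighbour, DTXL1, that was also lower, and reads of such copies may be split between them. Transcription factors in this group were ERF113, ERF013 and anac047, at 4.92-fold, 3.63-fold and 3.39-fold lower. NRPB12, a small subunit shared by RNA polymerases, was 109 FPKM in OX and 366 FPKM in wild type with a deposited q-value of 0.0078.

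**Figure D2:**
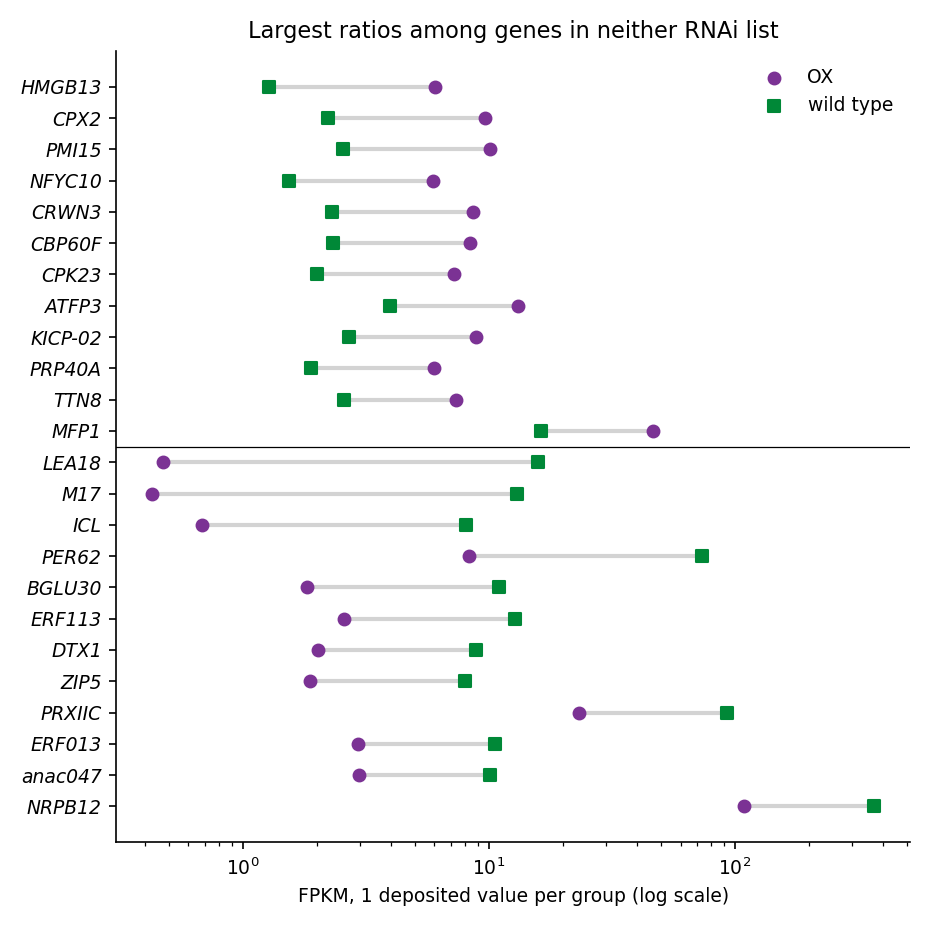
FPKM in OX (purple circles) and wild type (green squares), log scale, for the 12 genes of largest ratio in each direction among genes that have a symbol, 5 FPKM or more in the higher group and no entry in the RNAi lists. The upper 12 were higher in OX by 2.84-fold to 4.73-fold. The lower 12 were lower in OX by 3.35-fold to 33.4-fold.

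Genes that also stand in an RNAi list included the extremes of both directions. PCC1, a pathogen- and clock-responsive gene, led the higher side, and AGL31, a MADS-box floral repressor, SR34B, a serine/arginine-rich splicing factor, TSA1, a protein that associates with the TONSOKU nuclear protein, and RPT1B, a proteasome ATPase, were 4.10-fold, 3.79-fold, 3.67-fold and 3.57-fold higher. On the lower side AZI1, a lipid transfer-like protein of systemic defence priming, was 21.6 FPKM in OX and 359 FPKM in wild type, 16.6-fold lower. PER71, AIR1 (an auxin-induced root gene), ATEXT4 (an extensin of the cell wall) and PDF1.4 (a defensin-like protein) were 11.9-fold, 9.38-fold, 8.97-fold and 8.73-fold lower. The largest ratio of any nuclear gene was that of AT2G17740, a cysteine- and histidine-rich C1 domain gene, at 0.171 FPKM in OX and 9.33 FPKM in wild type, 54.5-fold lower.

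The directions of the listed genes followed gene structure. Genes higher in OX had a median locus length of 3234.5 bases and a median of 8 exons, and genes lower in OX a median of 1309 bases and 2 exons, where RefSeq's 27444 nuclear protein-coding genes have medians of 2078 bases and 4 exons. The exon number is the largest over a gene's RefSeq transcripts and was available for 1129 of the higher and all 731 of the lower genes. Genes with 1 exon made up 60 of these higher genes, or 5.31%, and 357 of the lower genes, or 48.8%, against 18.9% of all protein-coding genes. Genes with more than 10 exons made up 432 of the higher genes, or 38.3%, and 9 of the lower genes, or 1.23%, against 13.3% of all protein-coding genes.

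Among listed genes with 1 exon 14.4% were higher in OX, and among those with 11 to 20 exons 97.5% were. All 88 listed genes with 21 or more exons were higher. By length, 3.23% of the listed loci under 500 bases and 95.7% of those of 7000 bases or more were higher, where 60.8% of all listed nuclear genes were. The genes in neither RNAi list had the same order of medians, with 9 exons for the 914 higher genes with an exon number and 1 exon for the 451 lower genes. Locus length here is that of the deposited locus, which covers introns and can span more than 1 gene, as it did for 52 nuclear genes that share a locus with another listed gene.

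**Figure D3:**
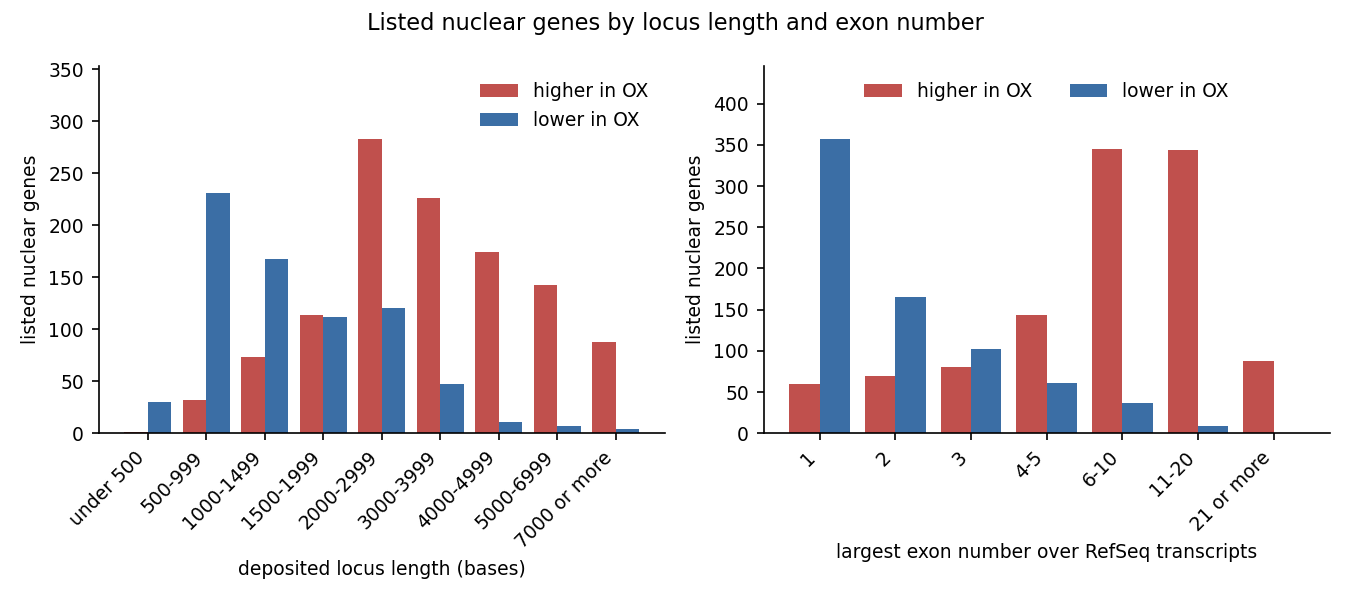
Numbers of listed nuclear genes higher in OX (red) and lower in OX (blue) by deposited locus length in bases (left) and by largest RefSeq exon number (right). Loci of 500 bases to under 1000 held 32 higher and 231 lower genes, and loci of 4000 bases to under 5000 held 174 higher and 11 lower genes. Genes with 1 exon were 60 higher and 357 lower.

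The wild-type level is part of the ratio, and every listed gene reached at least 0.401 FPKM in its higher group, so genes of low wild-type level could enter almost only as higher. Under 0.5 FPKM in wild type, 258 were higher and 16 lower, and no relation of level to direction is read from these shares. Of the genes higher in OX, 39.5% were under 1 FPKM in wild type and 0.353% were at 50 FPKM or more, while of the lower genes 11.6% were under 1 FPKM and 22.3% at 50 FPKM or more. The relation to exon number was also seen within classes of wild-type level. Among listed genes under 1 FPKM in wild type, 51.4% of those with 1 exon and 97.2% of those with 6 or more exons were higher in OX. Among listed genes at 5 to 20 FPKM, 2.11% of those with 1 exon and 88.9% of those with 6 or more were higher. Structure, level and the gene groups described next overlap, and their parts in the directions were not tested. RNA integrity and library insert sizes were not analysed here.

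Of the listed nuclear genes, 29 lie together on chromosome 2 from 3244557 to 3478704 (TAIR10), a block of 234 kb that is a copy of mitochondrial DNA in the nuclear genome, and all 29 were lower in OX. Aligned to the mitochondrial genome of TAIR10.1 with BLAST, they matched at 99.4% to 100% identity, and no other listed nuclear gene matched an organelle genome at 95% identity over 80% of its length. Reads of mitochondrial transcripts and of these copies therefore cannot be told apart by sequence. AT2G07687, the copy of the cytochrome c oxidase subunit III gene, measured 0.171 FPKM in OX and 2.49 FPKM in wild type, 14.6-fold lower. AT2G07698, the copy of an ATP synthase alpha subunit gene, measured 0.511 FPKM in OX and 5.30 FPKM in wild type.

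The median ratio of the 29 copies was 3.92-fold, with a range from 2.16-fold to 14.6-fold, and 16 of them stand in neither RNAi list. Their median was 0.743 FPKM in OX and 2.91 FPKM in wild type. The 31 genes listed from the mitochondrial genome itself were all lower in OX too, with a median ratio of 5.32-fold, and the 56 from the chloroplast genome with a median of 22.8-fold. Without the 29 copies, 702 nuclear genes were lower in OX, 435 of them in neither RNAi list. The 12 organelle genes in neither RNAi list were PSBK of the chloroplast, a photosystem II subunit gene at 3.096 FPKM in OX and 728 FPKM in wild type, and 11 mitochondrial genes with ratios from 2.54-fold to 9.36-fold. These included ATP9 and ATP6-2, subunit genes of the ATP synthase, at 13.2 FPKM in OX and 33.5 FPKM in wild type and at 0.777 FPKM in OX and 2.31 FPKM in wild type.

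**Figure D4:**
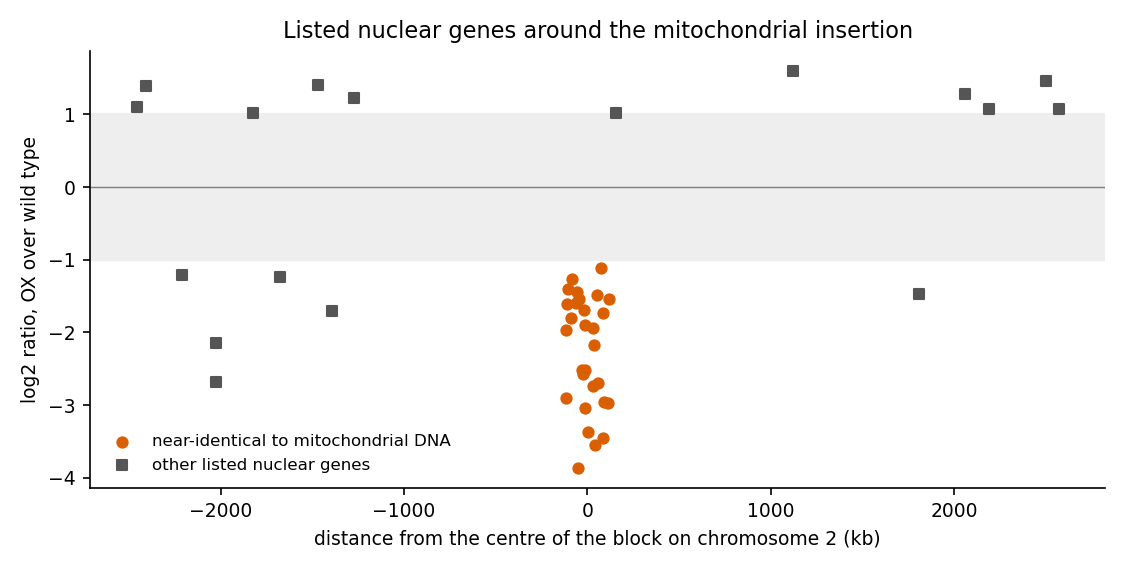
Log2 ratio of OX over wild type (vertical) against distance in kb from the centre of the block on chromosome 2 (horizontal) for listed nuclear genes, orange where the gene is near-identical to mitochondrial DNA and grey elsewhere. The 29 orange genes sit within the 234 kb block and all lie below the 2-fold band shaded in grey, while genes outside it lie on both sides.

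Genes of functional groups were then counted, using 66 lists of gene families, pathways and cell markers, of which 60 had a listed member. They held 614 of the listed nuclear genes. In all groups a first yardstick is that 60.8% of listed nuclear genes were higher and 39.2% lower in OX. Locus length gives a second. Of listed loci of 4000 to under 5000 bases 94.1% were higher, and of those of 7000 bases or more 95.7%. Of listed loci of 1000 to under 1500 bases 30.3% were higher. Groups of long or short loci are to be read beside these shares, and group and length were not told apart.

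Proteins that act on chromatin and in the nucleus were mostly on the higher side. Of 186 annotated chromatin remodelling and histone modification genes, 22 were higher in OX and 1 was lower, SRT1 being among the 22. Their median log2 ratio was 1.32 and their median locus length 4395 bases. The leading member was AT1G53250, annotated as a histone-lysine methyltransferase-like protein, at 5.33 FPKM in OX and 1.02 FPKM in wild type. Genes of 4 DEK domain proteins, which bind DNA and histones, were higher together. AT4G26630 was 29.4 FPKM in OX and 8.17 FPKM in wild type, AT5G55660 12.1 FPKM in OX and 3.31 FPKM in wild type, while AT3G48710 was 3.33-fold higher and AT5G63550 4.01 FPKM in OX and 1.57 FPKM in wild type. PIE1, the ATPase of the complex that deposits histone H2A.Z, was 2.11-fold higher, and HUB2, a ligase that attaches ubiquitin to histone H2B, 2.67-fold higher. No other sirtuin or histone deacetylase gene was listed among the 18 annotated.

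All 4 CRWN genes, CRWN1 to CRWN4, of the nuclear lamina, which shape the plant nucleus, were higher in OX. CRWN2 was 4.78 FPKM in OX and 1.13 FPKM in wild type, CRWN1 27.4 FPKM in OX and 13.1 FPKM in wild type, and CRWN4 9.82 FPKM in OX and 4.83 FPKM in wild type, beside CRWN3 given above. The nuclear pore protein gene GLE1, which acts in mRNA export, was 2.29-fold higher, and these 5 genes were in neither RNAi list. Of 340 annotated splicing and RNA processing genes, 32 were higher and 1, the cleavage factor gene PCFS5 at 2.00-fold, was lower, with a median log2 ratio of 1.26 and a median locus length of 3679 bases. They included the splicing factor gene AT5G09880, 3.02-fold higher, and AT4G36980, a serine/arginine-rich protein gene at 27.9 FPKM in OX and 7.17 FPKM in wild type.

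DNA replication, repair and cohesion genes were higher in 18 cases and lower in 1, of 119 annotated. RAD50, which holds broken DNA ends together, was 3.42 FPKM in OX and 1.03 FPKM in wild type. TOP1BETA, a DNA topoisomerase, was 2.66-fold higher. SMC2-1, of condensin, was 2.47 FPKM in OX and 0.989 FPKM in wild type, and SMC6A, of an SMC repair complex, was 2.81-fold higher. The lower gene was AT3G62450, annotated as a mismatch repair protein, at 83.0 FPKM in OX and 173 FPKM in wild type. The median locus length of this group was 4926 bases, and 17 of its 18 higher genes were in neither RNAi list.

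Motor proteins were the group with the longest loci, at a median of 7322 bases. Of 58 annotated kinesins and class VIII and XI myosins, 20 were listed and all 20 were higher in OX, 19 of them in neither RNAi list, with a median log2 ratio of 1.39. POK1 and POK2, kinesins that guide the new cell wall to its site at division, were 1.11 FPKM in OX and 0.410 FPKM in wild type and 1.30 FPKM in OX and 0.444 FPKM in wild type. KCBP, a calmodulin-binding kinesin of trichome shape, was 6.52 FPKM in OX and 2.39 FPKM in wild type. The myosin genes XI-J, VIII-B and XI-H were 4.94-fold, 4.36-fold and 2.53-fold higher, XI-H at 4.93 FPKM in OX and 1.95 FPKM in wild type. With folds taken on log2(FPKM + 1) 6 of the 20 still differed 2-fold.

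Of 76 annotated cell cycle genes, 9 were higher and 0 lower, 8 of them in neither RNAi list, with a median log2 ratio of 1.16. CDC20-2, an activator of the anaphase-promoting complex, was 4.18 FPKM in OX and 1.47 FPKM in wild type. TPX2, a spindle assembly factor, was 2.86 FPKM in OX and 1.18 FPKM in wild type, and CYCA3-1, an A-type cyclin, 1.17 FPKM in OX and 0.513 FPKM in wild type with a deposited q-value of 0.0050. NACK1, a cytokinesis kinesin that belongs to the motor list as well, and MYB3R-1, a MYB factor of division-phase genes, were 2.21-fold and 2.22-fold higher. The 4 markers of dividing cells that were looked for had 0 listed members, so the counts cover these 9 genes and no more. With folds on log2(FPKM + 1), 2 of the 9 differed 2-fold.

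The AACGG core of the element that MYB3R factors bind lies in the promoters of some of these genes. The 300 bases before the RefSeq gene start (TAIR10.1) are given for 2 of the cell cycle genes that hold it, CYCA3-1 (chr5:17292652-17292951, plus strand) and NACK1 (chr1:6324379-6324678, minus strand). Capitals mark AACGG or, where it is on the other strand, its complement CCGTT.
CYCA3-1: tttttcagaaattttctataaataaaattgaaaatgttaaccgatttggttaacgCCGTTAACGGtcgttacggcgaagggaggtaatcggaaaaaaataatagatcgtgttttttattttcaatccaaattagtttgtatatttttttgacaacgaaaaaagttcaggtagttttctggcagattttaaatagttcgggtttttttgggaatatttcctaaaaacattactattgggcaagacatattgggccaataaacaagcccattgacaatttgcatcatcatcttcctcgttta
NACK1: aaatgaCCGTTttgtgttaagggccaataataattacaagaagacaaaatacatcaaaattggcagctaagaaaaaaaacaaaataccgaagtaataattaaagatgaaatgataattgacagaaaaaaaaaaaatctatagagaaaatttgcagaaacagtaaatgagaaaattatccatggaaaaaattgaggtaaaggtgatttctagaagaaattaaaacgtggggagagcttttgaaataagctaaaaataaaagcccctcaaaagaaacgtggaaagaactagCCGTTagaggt

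NACK1 held the core 2 times, 1 of them 11 bases before the gene start, and in CYCA3-1 copies on opposite strands lay side by side. AACGG on either strand was found in 3 of the 9 cell cycle promoters and in 8 of the 20 motor promoters. It was found in 25.8% of the 1043 promoters of protein-coding genes higher in OX, in 18.0% of the 699 promoters of those lower and in 23.4% of all 27443 promoters of this length. The element TGGGCC or TGGGCT was in 26.5% of higher, 10.7% of lower and 20.8% of all promoters. TATAAA or TATATA was in 58.2% of higher, 74.5% of lower and 64.7% of all promoters. A match is a description of letters only, and its part in the levels was not tested.

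Further lists were counted in the same way. Protein kinases had 63 higher and 19 lower members of 1384 annotated. Pentatricopeptide repeat proteins, which process organelle transcripts, had 15 higher and 0 lower of 279. Vesicle traffic and autophagy had 9 higher and 1 lower of 237, and NLR immune receptors 5 higher and 0 lower of 159. On log2(FPKM + 1) fewer differed 2-fold, with 10 higher and 5 lower protein kinases and 3 higher pentatricopeptide repeat proteins. Over all tests 5.82% were listed as higher. None of these lists had a larger share of its annotated members listed as higher, although annotated genes need not all have been tested. RLM3, an immune receptor gene of the TIR class, was 94.0 FPKM in OX and 43.7 FPKM in wild type. CRK16, a cysteine-rich receptor-like kinase gene, measured 7.82-fold higher, but at 1.06 FPKM in OX and 0.136 FPKM in wild type with a deposited q-value of 0.0063. The flowering list had 6 higher members and 1 lower of 65 annotated. MAF3, a repressor next to AGL31, was 9.17 FPKM in OX and 3.15 FPKM in wild type, whereas FLC, the central repressor, was 3.81 FPKM in OX and 8.62 FPKM in wild type. The clock list had 4 higher members and 0 lower of 36 annotated. AT3G54500 led them in level, at 137 FPKM in OX and 64.1 FPKM in wild type. APRR7, a pseudo-response regulator, was 2.32-fold higher. Starch and sugar genes had 7 higher and 4 lower members of 111 annotated, a share of 63.6% higher beside 60.8% of all listed nuclear genes. The listed shares were near those of all tests, 5.82% higher and 4.2% lower. SS4 and ISA3 of starch synthesis and breakdown were 2.33-fold and 2.21-fold higher, and the hexose carrier gene STP13 was 2.58-fold lower. On log2(FPKM + 1) that list had 1 higher and 3 lower members.

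**Figure D5:**
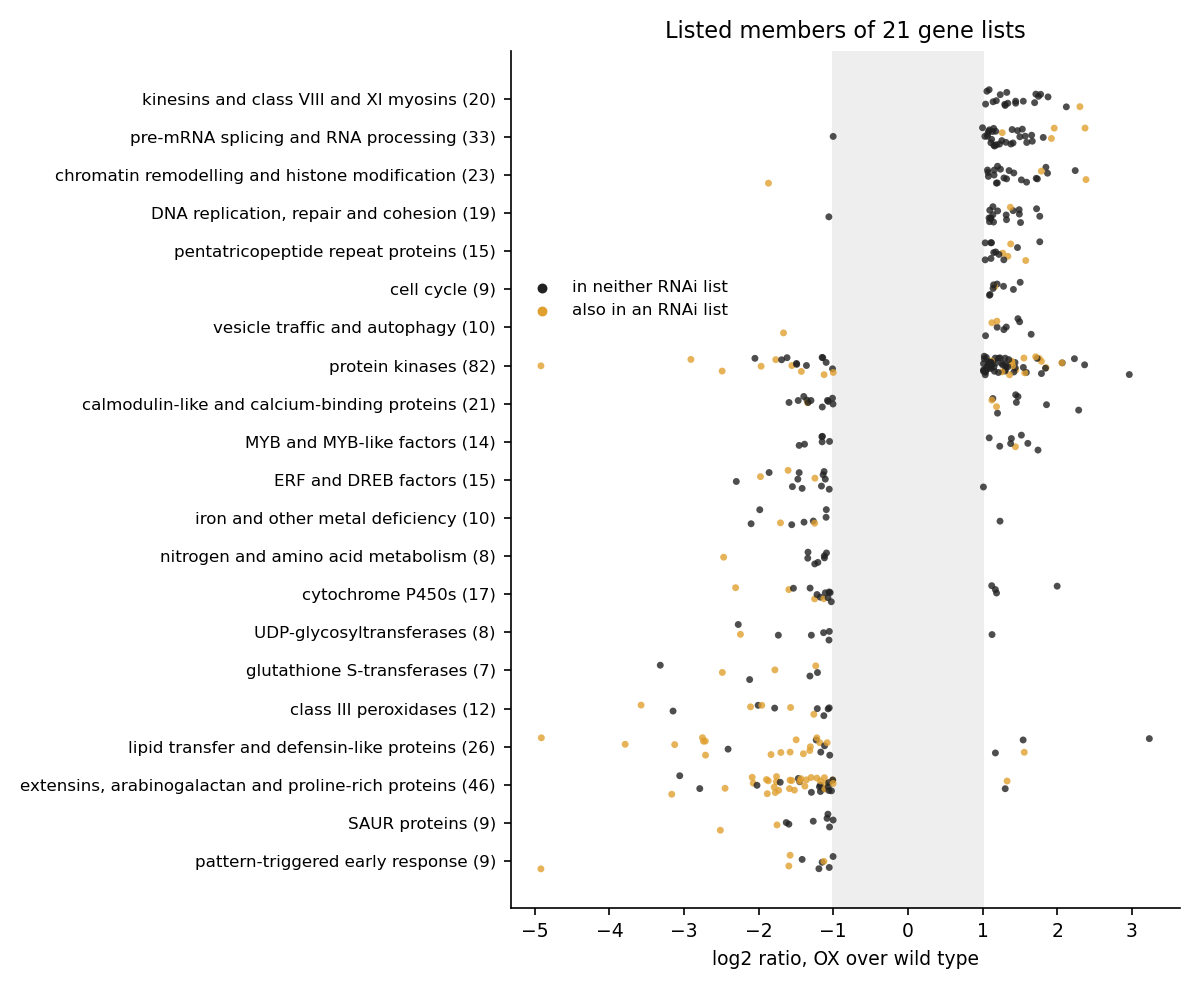
Log2 ratio of OX over wild type (horizontal) of each listed member of 21 gene lists, 1 point per gene with vertical jitter, black for genes in neither RNAi list and orange for genes also in one, with the number of listed members in parentheses. The grey band is the 2-fold limit. All 20 motor genes and all 9 cell cycle genes lie to its right, and all 12 class III peroxidases and all 7 glutathione S-transferases lie to its left.

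Cell wall and secreted proteins stood on the lower side. Extensins, arabinogalactan proteins and proline-rich proteins had 44 lower and 2 higher members of 265 annotated, with a median log2 ratio of -1.44 and a median locus length of 1355 bases, and 16 of the 44 were in neither RNAi list. ATEXT4 was 75.2 FPKM in OX and 675 FPKM in wild type. AGP5, an arabinogalactan protein gene, measured 0.663 FPKM in OX and 2.69 FPKM in wild type. Lipid transfer and defensin-like proteins had 22 lower and 4 higher members of 391 annotated. Over all tests 4.2% were listed as lower, organelle genes included. The lower share of this list was not far above it, although annotated genes need not all have been tested. LTP4 stood out on the higher side at 3.82 FPKM in OX and 0.406 FPKM in wild type. Expansins and xyloglucan enzymes had 6 lower and 0 higher members of 69 annotated. XTH7, which cuts and joins wall xyloglucan, was 119.6 FPKM in OX and 288 FPKM in wild type.

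Class III peroxidases, which use hydrogen peroxide to cross-link or loosen the wall, had 12 lower members of 73 annotated and 0 higher, 7 of them in neither RNAi list, with a median log2 ratio of -1.68. PER69, PER70 and PER71 are neighbours on chromosome 5 and were lower together, PER69 at 24.2 FPKM in OX and 94.0 FPKM in wild type, PER70 at 6.95 FPKM in OX and 16.7 FPKM in wild type, and PER71 as given above. PER49 and PER72 were 4.02-fold and 2.32-fold lower. Adjacent genes of near-identical sequence can share reads. Across the nuclear genome 183 pairs of adjacent protein-coding genes were both listed, 72 with both higher in OX, 63 with both lower and 48 with opposite directions. Pairs within the block of mitochondrial copies, such as AT2G07725 and MT-CYB, are among those with both lower. How many pairs would arise without any link between neighbours was not worked out.

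Among families of detoxification enzymes, glutathione S-transferases, which couple glutathione to reactive compounds, had 7 lower members and 0 higher of 56 annotated. GSTU17 was 24.5 FPKM in OX and 60.8 FPKM in wild type, and GSTU12 0.102 FPKM in OX and 1.01 FPKM in wild type with a deposited q-value of 0.015. UDP-glycosyltransferases had 7 lower and 1 higher of 131, with UGT72E1, which glucosylates lignin precursors, at 41.6 FPKM in OX and 102 FPKM in wild type. Cytochrome P450s had 13 lower and 4 higher of 248, 9 and 4 of them in neither RNAi list. Over all tests 4.2% were listed as lower, organelle genes included. The lower shares of P450s and UDP-glycosyltransferases were not far above it, although annotated genes need not all have been tested. The phenylpropanoid list had 7 lower members and 0 higher of 61 annotated. They include several enzymes of lignin precursor synthesis. PAL1, the entry enzyme, was 15.8 FPKM in OX and 44.1 FPKM in wild type, CYP73A5, the cinnamate hydroxylase, 51.6 FPKM in OX and 105 FPKM in wild type, CYP98A3, a later hydroxylase, 24.4 FPKM in OX and 49.7 FPKM in wild type, and CCR1, cinnamoyl-CoA reductase, 44.6 FPKM in OX and 93.6 FPKM in wild type. CCR1 and CYP98A3 lie on deposited loci of 6329 and 3251 bases, against the median of 1309 for lower genes. Such a locus can span more than 1 gene, and AT1G15940, the gene next to CCR1, was listed as higher. Whether the locus of CCR1 takes in this neighbour was not tested, so 6329 bases is not read as the length of CCR1 itself.

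Nitrogen and amino acid metabolism had 8 lower members and 0 higher of 57 annotated, 7 of the 8 in neither RNAi list. With folds on log2(FPKM + 1) all 8 still differed 2-fold. NIA1 and NIA2, the nitrate reductases, were 40.0 FPKM in OX and 92.2 FPKM in wild type and 159 FPKM in OX and 403 FPKM in wild type. AMT1-1 and AMT1-2, ammonium transporters, were 32.1 FPKM in OX and 68.3 FPKM in wild type and 5.27 FPKM in OX and 12.5 FPKM in wild type. GLN1-1, a cytosolic glutamine synthetase, and LHT1, an amino acid importer, were 2.17-fold and 2.54-fold lower. The median deposited locus length of these 8 genes was 2959 bases, close to that of the genes higher in OX. Such loci can span more than 1 gene, and AT5G37590, next to GLN1-1, was listed as higher. Whether any of the 8 loci takes in a neighbour was not tested.

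Genes of iron and other metal deficiency had 9 lower members and 1 higher of 59 annotated, 7 of the 9 in neither RNAi list. ZIP5 was 1.87 FPKM in OX and 8.01 FPKM in wild type. COPT1, a high-affinity copper importer, was 87.2 FPKM in OX and 209.9 FPKM in wild type, and ORG3, a bHLH regulator of iron uptake, 0.631 FPKM in OX and 1.66 FPKM in wild type. The higher member was FRO8, a ferric reductase, at 11.4 FPKM in OX and 4.84 FPKM in wild type. Ion, nitrate, phosphate, sulfate and aquaporin transport had 3 higher and 4 lower members of 177 annotated, all in neither RNAi list. These shares lay below those of all tests, 5.82% higher and 4.2% lower. KAT2, a potassium channel, was 2.90-fold higher, and PHT1-1, a phosphate transporter, was 2.01-fold lower.

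Listed transcription factors were counted by family. ERF and DREB factors, which bind GCC or dehydration-responsive elements, had 14 lower members and 1 higher of 129 annotated. Of the 14, 11 were in neither RNAi list. The median log2 ratio of the list was -1.42 and its median locus length 944 bases. ERF113 was 2.58 FPKM in OX and 12.7 FPKM in wild type, CRF6, a cytokinin response factor, 8.76 FPKM in OX and 24.4 FPKM in wild type, and ERF4, a repressor, 32.2 FPKM in OX and 71.8 FPKM in wild type. The higher one, ERF015, was 2.02-fold higher. SAUR proteins, short auxin-response proteins of growth, had 9 lower and 0 higher of 78 annotated. The auxin repressors IAA1 and IAA29 were 2.15-fold and 2.13-fold higher. C2H2 and Dof factors had 8 lower and 1 higher of 137 (1 and 0 on log2(FPKM + 1)). NAC factors had 3 lower and 0 higher of 82, and MYB and MYB-like factors 8 higher and 6 lower of 180. Over all tests 5.82% were listed as higher and 4.2% as lower, organelle genes included. The NAC and MYB shares lay below these, and the lower share of C2H2 and Dof factors was not far above. Calmodulin-like and calcium-binding proteins had 12 lower and 9 higher members of 180, with CML35 at 31.1 FPKM in OX and 86.1 FPKM in wild type. Ubiquitin ligases and F-box proteins had 24 lower and 23 higher members of 1419, both below the shares of all tests. Annotated genes need not all have been tested.

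Early genes of pattern-triggered immunity, which are induced within minutes when a microbial pattern is sensed, had 9 lower members and 0 higher of 56 annotated, 5 of them in neither RNAi list. SIRK, also known as FRK1, a receptor-like kinase gene used as a marker of this response, measured 0.0743 FPKM in OX and 2.25 FPKM in wild type, 30.2-fold lower. CYP81F2, of indole glucosinolate synthesis, was 2.11 FPKM in OX and 6.36 FPKM in wild type. EXL1, a phosphate-responsive family gene, measured 81.5 FPKM in OX and 244 FPKM in wild type, and ERF6, a factor downstream of the stress kinase cascade, 9.55 FPKM in OX and 25.5 FPKM in wild type. The 300 bases before the RefSeq gene start (TAIR10.1) are shown for the 3 genes of largest ratio that hold the W-box, the site of WRKY factors, searched as TTGACC or TTGACT on both strands. They are SIRK (chr2:8329945-8330244, minus strand), CYP81F2 (chr5:23187540-23187839, plus strand) and EXL1 (chr1:12851683-12851982, plus strand), and capitals mark the matches, GGTCAA and AGTCAA being the forms on the other strand.
SIRK: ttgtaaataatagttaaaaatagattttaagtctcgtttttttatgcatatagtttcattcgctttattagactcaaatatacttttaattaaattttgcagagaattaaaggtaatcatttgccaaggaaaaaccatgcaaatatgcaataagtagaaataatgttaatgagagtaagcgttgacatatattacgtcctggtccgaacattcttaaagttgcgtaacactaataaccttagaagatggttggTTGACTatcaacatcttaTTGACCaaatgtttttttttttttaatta
CYP81F2: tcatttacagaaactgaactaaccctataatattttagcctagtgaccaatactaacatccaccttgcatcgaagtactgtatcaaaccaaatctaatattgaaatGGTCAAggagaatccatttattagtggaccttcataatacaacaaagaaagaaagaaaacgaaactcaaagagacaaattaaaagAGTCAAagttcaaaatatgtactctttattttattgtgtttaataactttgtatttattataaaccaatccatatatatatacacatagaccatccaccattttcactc
EXL1: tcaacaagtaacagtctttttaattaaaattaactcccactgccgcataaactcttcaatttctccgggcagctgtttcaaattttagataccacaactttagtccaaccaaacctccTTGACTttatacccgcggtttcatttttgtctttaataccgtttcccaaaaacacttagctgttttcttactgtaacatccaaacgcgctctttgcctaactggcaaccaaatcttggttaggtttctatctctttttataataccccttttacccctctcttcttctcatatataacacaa

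SIRK held 2 matches, at 47 and 29 bases before the gene start, CYP81F2 held 2 and EXL1 held 1, at 182 bases. The W-box was in 4 of the 9 promoters of this group. It was in 30.3% of promoters of protein-coding genes higher in OX, in 41.5% of those lower and in 32.3% of all promoters. For genes in neither RNAi list it was in 255 of 850 promoters of the higher and 177 of 433 of the lower. The GCC-box core GCCGCC was in 2.59% of higher, 2.43% of lower and 2.26% of all promoters. Of 72 annotated WRKY factors, WRKY6 and WRKY47 were listed as lower, at 2.22-fold and 2.24-fold, and WRKY41 as higher, at 3.53-fold.

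Markers of cell types were read for the tissues that whole seedlings hold. Of 8 endodermis markers 4 were listed and lower, and these 4 summed to 14.6 FPKM in OX and 36.6 FPKM in wild type. Of 7 root hair markers 3 were listed and lower, and these 3 summed to 3.75 FPKM in OX and 7.71 FPKM in wild type. Each sum covers listed members only, so its direction was set by the listing. The unlisted markers have no value here. Of 5 leaf mesophyll markers 3 were lower, among them AT1G29910, a chlorophyll-binding protein gene, at 5999 FPKM in OX and 13505 FPKM in wild type. It and its near-identical neighbour AT1G29920 can share reads. GL1 was the only listed one of 4 trichome markers and was 2.35-fold higher, at 1.03 FPKM in OX and 0.437 FPKM in wild type. Markers of root cap, phloem and xylem, guard cells, dividing cells, pollen and seed had 0 listed members. Root and leaf markers were thus present in both groups, and the part of tissue shares in the gene groups above was not tested.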

How the data were processed

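The deposited tables were made with TopHat2 2.1.1, Cufflinks 2.2.1 and Cuffdiff on TAIR10 (per the submitters' processing notes, where the role of each is not stated). Per the file headers, each row deposited by the authors holds gene identifiers, a locus, 1 FPKM value per group, a log2 ratio of wild type over OX, a p-value and a q-value. The authors' deposited log2 ratios matched the FPKM values within 1.29e-05. Rows were limited by the authors to 2-fold and a q-value under 0.05, as the values show.

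OX was set over wild type for every ratio, with no pseudocount. No per-library values were given, so no test of its own was run, the planned description of the lists was used, and calls are the authors'. The number of tests was found as the whole number from 5000 to 35000 that best turned p over q into whole ranks over 243 distinct p-values (largest distance 0.0435, next best 19470 at 0.327), and this step was tested on simulated data. Names, exons and promoters came from RefSeq TAIR10.1, which held 1860 of the 1865 nuclear identifiers. Python 3.11.15, pandas 2.3.3 and BLAST+ 2.17.0 were used. Tables of the RNAi line served only for gene identifiers, and 0 other columns of per-sample values were present. Counting strand is not given in the sources used here, so overlapping and antisense genes cannot be told apart.

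Named genes were SRT1 and, per direction, genes chosen by rule. They were the 12 of largest ratio in neither RNAi list and the 5 also in one, with a symbol and 5 FPKM or more in the higher group. Added were the 3 of largest FPKM difference, up to 6 listed members per gene list, and genes just inside the limits. Of those of largest difference, MT2B, AT4G13495 and AT5G16030 were not described above. MT2B was 2540 FPKM in OX and 5692 FPKM in wild type. AT4G13495 was 164 FPKM in OX and 35.5 FPKM in wild type, and AT5G16030 144 FPKM in OX and 54.8 FPKM in wild type. A gene outside this rule (NMNAT, AT2G17740 and, in their lists, members below the sixth ratio such as NACK1 and PER70) was chosen after its values were seen. The genes, lists and tests were chosen with earlier results of these data known, and the lists were trimmed of wrong matches after members were seen. 1 further promoter sequence is not reported here.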

Additional observations from a re-analysis of the deposited data

How the results depend on the processing

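No paired analysis was possible because the tables hold 1 value per group, and leaving out a library was not possible for the same reason. With a q-value of at most 0.01, with at least 1 FPKM in the higher group, with the 14 spaced entries kept, or without the 29 mitochondrial copies (an alternative chosen after seeing the data), all 5 counts of listed genes stayed within 1.5 times. Judging absence only from RNAi entries without a space, which bears on 2 of them, gave 919 and 451. A log2 limit of 1.5 left 334 nuclear genes higher and 252 lower, 214 and 103 of them in neither RNAi list. At least 5 FPKM in the higher group left 444 and 415, with 356 and 282 in neither list. A 2-fold limit on log2(FPKM + 1) left 383 higher and 400 lower, with 267 and 241 in neither list. Over all nuclear genes the lower side then held more, and among genes in neither list the higher side still did. The cause was not tested. The 87 organelle genes stayed within 1.5 times under each of these. The log2 ratio of SRT1 was 1.36 on log2(FPKM + 1) and 1.79 without the pseudocount.

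Of 40 gene lists with at least 5 listed members, the side with more members was the same for 40 with a q-value of at most 0.01, for 39 with at least 1 FPKM and for 37 on log2(FPKM + 1). On log2(FPKM + 1), 71 of 92 counts of list members moved by over 1.5 times, against 9 with at least 1 FPKM and 10 with a q-value of at most 0.01. The side with more members turned round for bHLH factors at 1 FPKM and, with the pseudocount, for receptor-like kinases and leucine-rich repeat proteins, for ABC and MATE transporters and for starch and sugar metabolism. Unknown depth limits what can be said of low levels, since 533 listed nuclear genes were under 1 FPKM in wild type.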
